A study of Mus musculus with 12 samples.

Results

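The respiratory chain assembly factors are nuclear-encoded proteins that help build the complexes of oxidative phosphorylation without being part of the finished enzyme. The 39 described here were taken as a given list of gene symbols, were grouped by the complex each one helps to build, and were found among 54751 features in the deposited table, each on a single row. They comprise 13 factors for complex I, 2 for complex II, 6 for complex III, 15 for complex IV and 3 for complex V. Whole hearts of C57BL/6N mice aged 52 weeks were compared between 3 total-RNA libraries from Rexo2 knockout mice, labelled Rexo2loxP/loxPloxP/loxP, +/Ckmm, and 3 from controls labelled Rexo2loxP/loxP, so that both groups carry Rexo2 flanked by loxP sites and the knockouts add an allele named Ckmm. Ckmm names muscle creatine kinase, and Cre recombinase under its promoter is a usual way to delete floxed genes in heart and skeletal muscle fibres. The controls lack that allele, so its own effect and the loss of Rexo2 cannot be told apart. Libraries are called by their group and the number in their column name, and no label says that each came from a different mouse, so p-values reflect only the scatter of these samples, part of which may be technical.

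Rexo2 encodes an oligoribonuclease that degrades very short RNA, including dinucleotides, in mitochondria and the cytosol. Normalised counts are reads per gene that the authors scaled by a size factor per library, which does not make the library totals equal. Those of Rexo2 were 274, 288 and 314 in knockout 492, 499 and 501, against 330, 368 and 293 in control 490, 498 and 502. The groups overlapped, and the log2 fold change was -0.17, its 95% interval reaching from -0.39 to 0.04 (limma, unadjusted p = 0.104, adjusted p = 1.00). It was -0.09 without control 498 (unadjusted p = 0.399 in limma), -0.26 without control 502 (unadjusted p = 0.0294) and -0.24 under equal library totals (unadjusted p = 0.0265). Equal totals moved the median of all features tested to -0.069. With totals made equal over features outside mitochondrial DNA, Rexo2 was at -0.15 (limma, unadjusted p = 0.167). Counts are per gene and the sources used here do not name the deleted exons, so this value does not check the labels, and knockout means the label throughout.

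Complexes I, III and IV pump protons across the inner mitochondrial membrane while passing electrons to oxygen, complex II feeds electrons in from succinate, and complex V uses the proton gradient to make ATP. Apart from complex II, each combines nuclear-encoded subunits with subunits encoded by mitochondrial DNA (mtDNA), and assembly factors chaperone intermediates, deliver iron-sulfur clusters, flavin, heme and copper, or guide newly made subunits into the membrane. The heart depends heavily on this system, and inherited defects in many of these factors cause isolated complex deficiencies in people, often with cardiomyopathy. The roles given below come mostly from work on human and yeast proteins.

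No assembly factor changed at an adjusted p under 0.05. limma on log2(normalised count + 1), fitted over 18250 features whose mean reached 10 and adjusted over all of them, called 0 of the 39 members, where it called 0.0219% of all features. At an unadjusted p under 0.05 it had 1 member, Cox14, which was lower, against 3.7% of all features (1.72% higher and 1.98% lower). edgeR on reads recovered from the deposited values called 0 members, with Cox14 the 1 member at an unadjusted p under 0.05, where it called 0.0274% of all features and had 3.78% at that unadjusted p. DESeq2 on the same reads gave an adjusted p to 17 members and called 0 of them, with 0 members at an unadjusted p under 0.05. It called 0.529% of the 5863 features to which it gave an adjusted p, and had 1.78% of 18245 at that unadjusted p. Of the members, 23 had an adjusted p in the authors' deposited table and 0 were called, where 0.437% of the 7550 features with an adjusted p were. The smallest unadjusted p of a member in that table was 0.0649, for Cox14.

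The log2 fold changes of the 39 members ran from -0.20 for Cox18 to 0.33 for Nubpl. Their median was 0.020, with 22 members above 0 and 17 below, beside a median of 0.001 and 50.2% above 0 over all features tested. For 38 of the 39, the 95% interval of the log2 fold change lay within a 1.5-fold change in either direction. The exception was Nubpl, whose interval ran from 0.936-fold to 1.70-fold. Of all features tested 71.7% had an interval within that limit, and among the 12361 features whose means lay in the same range as the members 95% did. These intervals are per gene and are not adjusted for the number of genes. Under equal library totals, where the median of all features moves to -0.069, 8 members lay above 0 and the median of the members was -0.049.

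**Figure D1:**
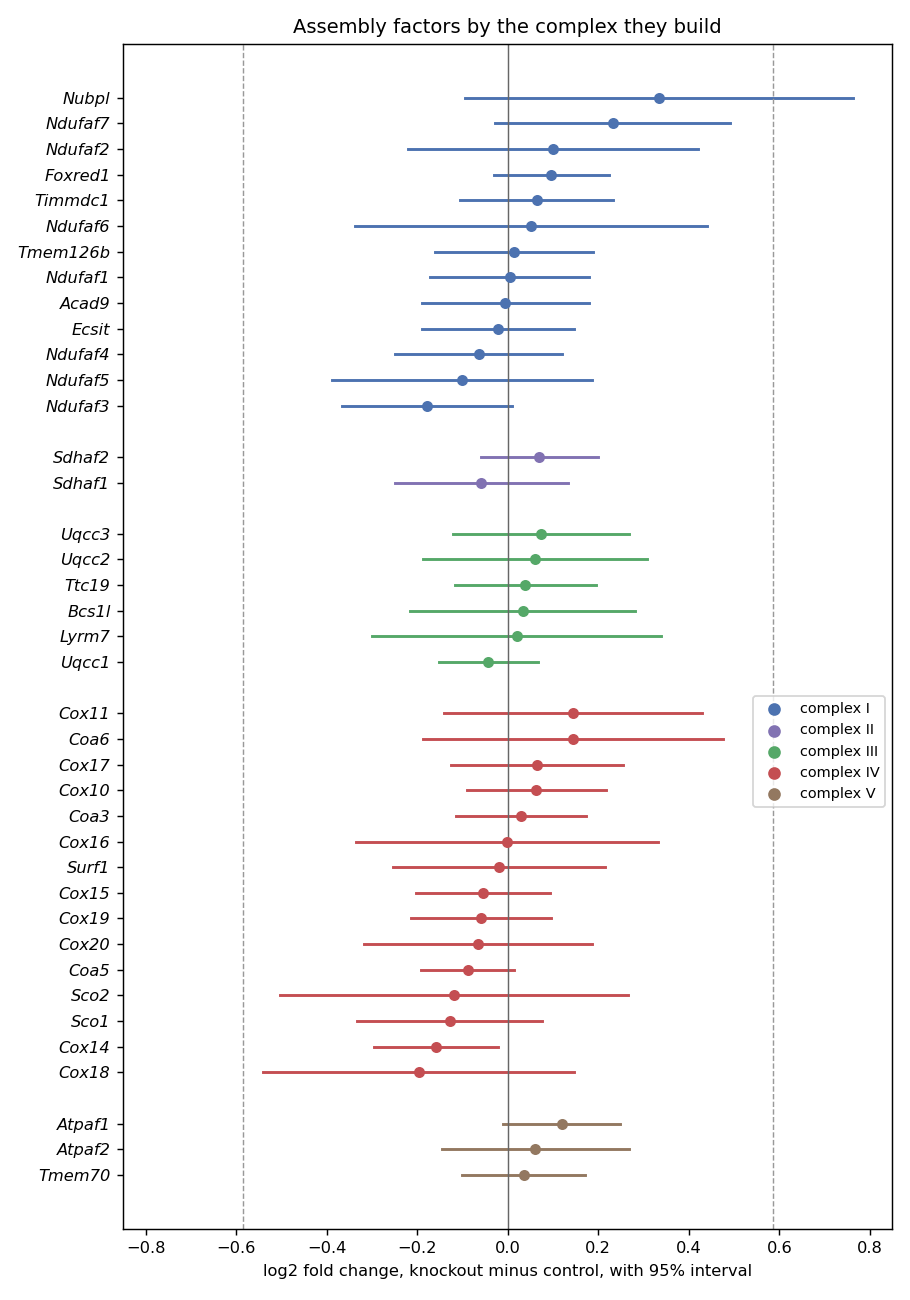
Points are log2 fold changes of normalised counts, knockout minus control, for the 39 assembly factors (vertical axis, grouped and coloured by complex), with 95% intervals from limma as lines, 3 libraries per group. Dashed lines mark a 1.5-fold change either way. Cox14 is the 1 factor whose interval leaves out 0, and Nubpl the 1 whose interval passes a dashed line.

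In 8 members every knockout library lay on 1 side of every control library, 3 higher and 5 lower, against 9.51% of all features tested, 4.61% higher and 4.9% lower. No test of that difference was made, since the members were chosen with earlier results known. The higher ones were Atpaf1, Ndufaf7 and Foxred1, and the lower ones were Cox14, Ndufaf3, Coa5, Ndufaf5 and Sdhaf1. In each of the 8 the shift was small, with fold changes from 0.884 for Ndufaf3 to 1.17 for Ndufaf7.

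**Figure D2:**
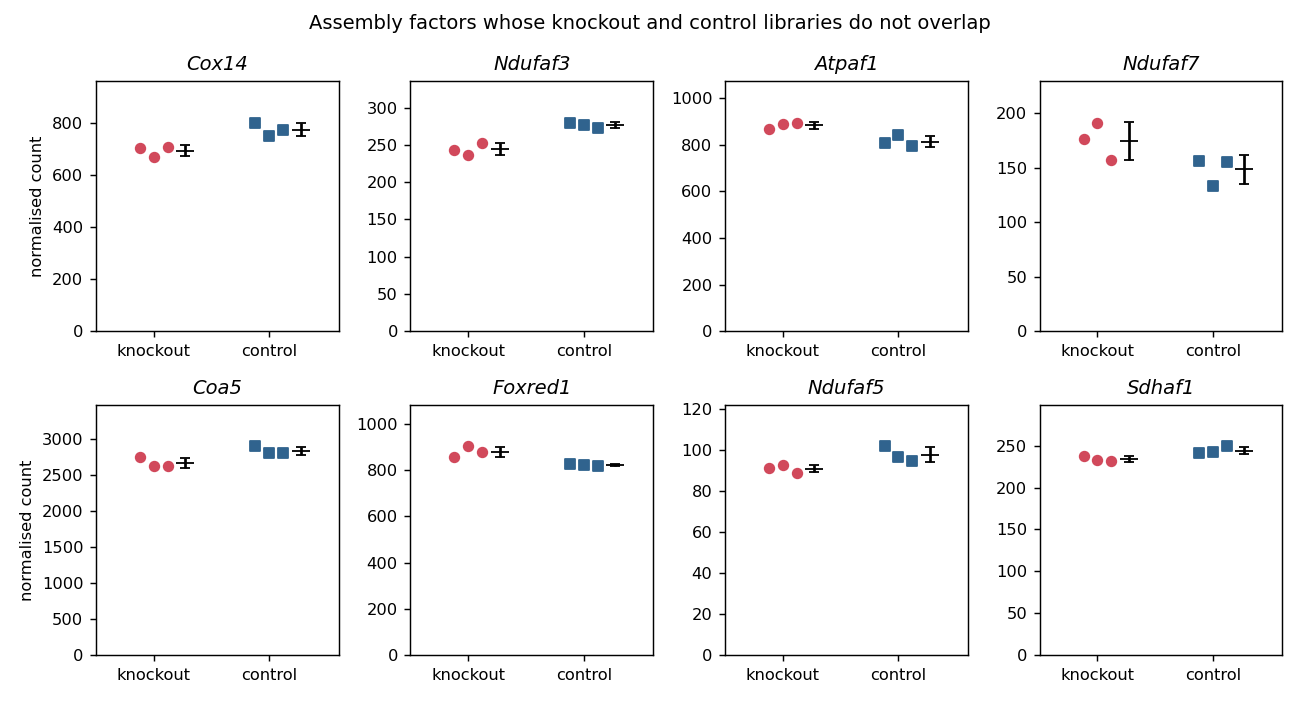
Normalised counts (vertical axes, from 0) of the 8 assembly factors whose libraries separate by group, with knockout at the left and control at the right of each panel. Symbols are libraries (3 per group) and bars are the mean ± SD. In Ndufaf7 the lowest knockout library, at 156.8, nearly touches the highest control, at 156.4.

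Complex IV, cytochrome c oxidase, has the longest list of factors. Cox14 (ENSMUSG00000023020.2, GRCm38 chr15:99725618-99728136) encodes a small inner-membrane protein that binds newly made COX1, the mtDNA-encoded catalytic subunit, and couples its synthesis to assembly. Its normalised counts were 703, 668 and 705 in knockout 492, 499 and 501, against 800, 747 and 772 in control 490, 498 and 502. All 3 knockout libraries were below the lowest control. The means were 692 ± 20.6 in knockout and 773 ± 26.2 in control hearts (SD, n = 3 each), so that the log2 fold change was -0.16 (SE 0.064, 95% interval from -0.30 to -0.02), with an unadjusted p of 0.0262 and an adjusted p of 1.00 in limma. Without control 490, the library farthest from the others on the first principal component, the log2 fold change was -0.135 (limma, unadjusted p = 0.0857, adjusted p = 0.996). The unadjusted p of Cox14 was also above 0.05 without knockout 499 (0.0931) or control 502 (0.054). Coa3, the partner of Cox14 on new COX1, held 590 ± 22.7 counts in knockout and 578 ± 1.38 in control hearts, with overlap.

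Coa5 (ENSMUSG00000026112.7, chr1:37417085-37430103), a twin CX9C protein needed early in complex IV assembly, had the highest counts of the members. It was measured at 2750, 2624 and 2623 counts in knockout 492, 499 and 501, against 2898, 2804 and 2802 in control 490, 498 and 502. The knockout libraries were all lower, by a log2 fold change of -0.09 with an interval from -0.19 to 0.01 (limma, unadjusted p = 0.0856, adjusted p = 1.00).

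COX2, which carries the binuclear copper site, is put into the membrane by COX18 and stabilised by COX20. Cox18 (ENSMUSG00000035505.14, chr5:90214724-90224595) had the most negative log2 fold change of any member with all 6 libraries, from 85.9, 69.1 and 93.6 counts in knockout 492, 499 and 501, against 89.4, 106 and 88.5 in control 490, 498 and 502. The groups overlapped, because knockout 501 lay above 2 of the controls, and the log2 fold change of -0.20 had a wide interval from -0.54 to 0.15 (limma, unadjusted p = 0.239, adjusted p = 1.00). It was -0.07 without knockout 499 and -0.11 without control 498, where Ndufaf3 was lower, at -0.16 and -0.18. Cox20 held 211 ± 25.7 counts in knockout and 221 ± 23.0 in control hearts (SD, n = 3 each), also with overlap.

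Copper reaches the oxidase through COX17, which hands it to SCO1 and SCO2 for the COX2 site and to COX11 for the COX1 site, while COA6, COX16 and COX19 act along the same route. Of these 7 factors 3 lay above 0 and 4 below (median -0.001), and none separated by group. Cox11 (ENSMUSG00000020544.14, chr11:90638184-90645977) had 111, 127 and 107 counts in knockout 492, 499 and 501, against 111, 101 and 99.7 in control 490, 498 and 502, a log2 fold change of 0.14 with an interval from -0.14 to 0.43 (limma, unadjusted p = 0.296, adjusted p = 1.00). The log2 fold change of Cox11 was 0.07 both without knockout 499 and under equal totals. Cox16, the complex IV factor with the lowest mean count, had 74.1, 74.8 and 81.2 in knockout 492, 499 and 501, against 72.4, 87.4 and 71.2 in control 490, 498 and 502. Its log2 fold change was -0.0008, with an interval from -0.33 to 0.33 (limma, unadjusted p = 0.996, adjusted p = 1.00). Both metallochaperones of the SCO pair were below 0 with overlapping groups, as Sco1 held 361 ± 35.2 counts in knockout and 394 ± 33.4 in control hearts, while Sco2 held 75.3 ± 15.3 in knockout and 81.3 ± 10.8 in control hearts (SD, n = 3 each). Cox17 had 348 ± 33.0 counts in knockout and 332 ± 1.95 in control hearts, Cox19 had 463 ± 5.05 in knockout and 482 ± 20.2 in control hearts, and Coa6 had 132 ± 18.6 in knockout and 120 ± 20.9 in control hearts.

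Heme a, the cofactor of COX1, is made by COX10 and COX15 in turn, and SURF1 acts where COX1 matures. All 3 overlapped between groups. Cox10 held 778 ± 43.3 counts in knockout and 745 ± 50.3 in control hearts, Cox15 held 507 ± 9.40 in knockout and 527 ± 16.3 in control hearts, and Surf1 held 175 ± 10.8 in knockout and 178 ± 13.0 in control hearts (SD, n = 3 each). Over all 15 complex IV factors the median log2 fold change was -0.055, with 5 above 0 and 10 below, and it was -0.125 under equal totals, -0.032 without control 498 and -0.005 without knockout 492.

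Complex I factors fall into groups by the stage at which they act. The early factors around the quinone-binding module include NDUFAF3 and NDUFAF4, which bind each other, NDUFAF5 and NDUFAF7, which modify arginines of core subunits, and NDUFAF6. Ndufaf3 (ENSMUSG00000070283.4, chr9:108565587-108567436) had 244, 237 and 253 counts in knockout 492, 499 and 501, against 280, 277 and 273 in control 490, 498 and 502. Its knockout libraries were all lower, at a log2 fold change of -0.18 (SE 0.087) with an interval from -0.37 to 0.01 (limma, unadjusted p = 0.0602, adjusted p = 1.00). Its partner Ndufaf4, with the highest counts of the complex I factors, had 1066, 814 and 871 in knockout 492, 499 and 501, against 954, 927 and 976 in control 490, 498 and 502. Knockout 492 was above every control and the other two knockouts were below them all, so that the log2 fold change was -0.06 with all libraries and -0.18 without knockout 492 (limma, unadjusted p = 0.0213, adjusted p = 0.961).

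Ndufaf7 (ENSMUSG00000024082.5, chr17:78937106-78948052) had 176, 191 and 156.8 counts in knockout 492, 499 and 501, against 156.4, 133 and 156 in control 490, 498 and 502. It was higher in every knockout library, at a log2 fold change of 0.23 with an interval from -0.03 to 0.49 (limma, unadjusted p = 0.0755, adjusted p = 1.00). Ndufaf5 had 91.2, 92.8 and 89.1 counts in knockout 492, 499 and 501, against 102, 96.8 and 94.6 in control 490, 498 and 502. All 3 knockouts were lower, by a log2 fold change of -0.10 with an interval from -0.39 to 0.19 (limma, unadjusted p = 0.46, adjusted p = 1.00). Ndufaf6, the member with the lowest mean, had 77.3, 54.9 and 57.5 counts in knockout 492, 499 and 501, against 59.9, 62.0 and 59.0 in control 490, 498 and 502. Knockout 492 was the highest library and the other two knockouts were the lowest, and the log2 fold change was 0.05 with an interval from -0.34 to 0.44 (limma, adjusted p = 1.00).

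NUBPL delivers iron-sulfur clusters to complex I, while NDUFAF2 and FOXRED1 act at later stages. Nubpl (ENSMUSG00000035142.18, chr12:52097746-52310970) had 55.8, 70.1 and 88.0 counts in knockout 492, 499 and 501, against 53.6, 64.9 and 48.8 in control 490, 498 and 502. The groups overlapped, since knockout 492 lay below control 498. Its log2 fold change of 0.33 (SE 0.199) had an interval from -0.09 to 0.76 (limma, unadjusted p = 0.117, adjusted p = 1.00), and the counts rested on 48 to 78 reads per library. It was 0.17 without knockout 501, where Ndufaf7 was higher at 0.31, and 0.50 without knockout 492. Foxred1 (ENSMUSG00000039048.15, chr9:35204208-35211171) had 857, 903 and 879 counts in knockout 492, 499 and 501, against 826, 823 and 819 in control 490, 498 and 502. All knockouts were above all controls, and the log2 fold change was 0.10 with an interval from -0.03 to 0.22 (limma, unadjusted p = 0.127, adjusted p = 1.00). Ndufaf2 held 96.1 ± 12.3 counts in knockout and 89.3 ± 6.99 in control hearts, with overlap.

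The mitochondrial complex I intermediate assembly (MCIA) complex, which builds part of the membrane arm, showed small shifts. Its factors Ndufaf1, Acad9, Ecsit and Tmem126b, with the associated Timmdc1, had log2 fold changes from -0.022 to 0.064 and a median of 0.004, and all 5 overlapped between groups. Acad9, which encodes a relative of the acyl-CoA dehydrogenases of fatty acid oxidation, held 282 ± 13.4 counts in knockout and 283 ± 5.93 in control hearts (SD, n = 3 each). Ndufaf1 held 531 ± 53.2 counts in knockout and 528 ± 9.96 in control hearts, and Ecsit held 735 ± 42.7 in knockout and 747 ± 70.6 in control hearts. Tmem126b held 512 ± 22.9 counts in knockout and 508 ± 44.7 in control hearts, and Timmdc1 held 367 ± 12.5 in knockout and 351 ± 9.15 in control hearts. Over all 13 complex I factors the median was 0.014, with 8 above 0 and 5 below, and it was -0.056 under equal totals and from -0.016 (without knockout 492) to 0.077 (without knockout 499) with 1 library left out.

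Complex II factors both serve the catalytic subunits. Sdhaf2 (ENSMUSG00000024668.7, chr19:10500512-10525209), needed to attach flavin to SDHA, had 923, 877 and 896 counts in knockout 492, 499 and 501, against 832, 881 and 856 in control 490, 498 and 502. The groups overlapped through knockout 499 and control 498, with a log2 fold change of 0.07 and an interval from -0.06 to 0.20 (limma, unadjusted p = 0.267, adjusted p = 1.00). Sdhaf1 (ENSMUSG00000074211.4, chr7:30321409-30322375), which helps load iron-sulfur clusters into SDHB, had 238, 233 and 232 counts in knockout 492, 499 and 501, against 241, 243 and 249 in control 490, 498 and 502. All knockouts were lower, but by a log2 fold change of only -0.06 with an interval from -0.25 to 0.13 (limma, unadjusted p = 0.519, adjusted p = 1.00). Sdhaf1 had the smallest within-group SD of the members, 0.023 on the log2 scale, where the median member had 0.099 and Nubpl the largest at 0.271.

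Complex III factors did not separate by group in any of the 6. UQCC1 and UQCC2 act on newly made cytochrome b, UQCC3 acts after them, and BCS1L, LYRM7 and TTC19 handle the Rieske iron-sulfur protein during and after its insertion. Uqcc1 (ENSMUSG00000005882.18, chr2:155846886-155930310) had 1942, 1933 and 1917 counts in knockout 492, 499 and 501, against 1935, 1969 and 2067 in control 490, 498 and 502, a log2 fold change of -0.04 with an interval from -0.15 to 0.07 (limma, unadjusted p = 0.408, adjusted p = 1.00). Uqcc3 had 259, 266 and 265 counts in knockout 492, 499 and 501, against 243, 241 and 268 in control 490, 498 and 502. Control 502 was above every knockout while the other two controls were below, and the log2 fold change was 0.07 with an interval from -0.12 to 0.27 (limma, unadjusted p = 0.43, adjusted p = 1.00). Lyrm7, with the lowest counts of the complex III factors, had 209, 135 and 191 in knockout 492, 499 and 501, against 189, 162 and 170 in control 490, 498 and 502. Knockout libraries were both the highest and the lowest, and the log2 fold change was 0.02 with an interval from -0.30 to 0.34 (limma, unadjusted p = 0.893, adjusted p = 1.00). Uqcc2 held 252 ± 34.4 counts in knockout and 240 ± 21.5 in control hearts, Bcs1l held 228 ± 31.0 in knockout and 222 ± 17.9 in control hearts, and Ttc19 held 880 ± 62.2 in knockout and 856 ± 58.6 in control hearts (SD, n = 3 each). The 6 had a median log2 fold change of 0.036, with 5 above 0, and it was -0.034 under equal totals and from -0.033 (without knockout 492) to 0.071 (without knockout 499) with 1 library left out.

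Complex V is served by ATPAF1 and ATPAF2, chaperones of the beta and alpha subunits of the F1 head, and by TMEM70, which promotes assembly of the membrane rotor ring. Atpaf1 (ENSMUSG00000028710.17, chr4:115784828-115811923) had 867, 887 and 895 counts in knockout 492, 499 and 501, against 806, 840 and 793 in control 490, 498 and 502. All knockouts were higher, at a log2 fold change of 0.12 (SE 0.060) with an interval from -0.01 to 0.25 (limma, unadjusted p = 0.0677, adjusted p = 1.00). Tmem70 had 963, 1050.0 and 980 counts in knockout 492, 499 and 501, against 949, 949 and 1024 in control 490, 498 and 502, and Atpaf2 had 312, 275 and 318 in the same knockouts, against 297, 307 and 264 in the same controls. Both overlapped, at a log2 fold change of 0.04 for Tmem70 and of 0.06 for Atpaf2 (limma, adjusted p = 1.00 for each). The 3 had a median of 0.061, which was -0.009 under equal totals, 0.116 without knockout 499 and 0.106 without control 498.

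Of the 77 nuclear-encoded subunits limma called 0, where 3 were lower and 0 higher at an unadjusted p under 0.05, against 1.98% of all features lower and 1.72% higher. The median log2 fold change of the subunits was 0.008. The 3 were Atp5a1, Sdha and Uqcrfs1, which encode proteins that ATPAF2, SDHAF2 and the trio of BCS1L, LYRM7 and TTC19 act on. Atp5a1, the alpha subunit of ATP synthase, had 29016, 27801 and 29564 counts in knockout 492, 499 and 501, against 34781, 33710 and 32751 in control 490, 498 and 502. Its log2 fold change was -0.23 (limma, unadjusted p = 0.000183, adjusted p = 0.18), and in the authors' deposited table it was called at an adjusted p of 0.00347. It was also called by DESeq2 on the recovered reads and by limma under equal totals, where 0 assembly factors were called. The log2 fold change of its chaperone Atpaf2 was 0.06. Sdha, the flavoprotein of complex II, held 8635 ± 473 counts in knockout and 9339 ± 339 in control hearts (SD, n = 3 each), at a log2 fold change of -0.11 (limma, unadjusted p = 0.0402, adjusted p = 1.00), where Sdhaf2 was at 0.07. Uqcrfs1, the Rieske protein, held 9004 ± 338 counts in knockout and 9649 ± 239 in control hearts (SD, n = 3 each), at a log2 fold change of -0.10 without overlap (limma, unadjusted p = 0.0448, adjusted p = 1.00), where Bcs1l, Lyrm7 and Ttc19 were at 0.03, 0.02 and 0.04. The unadjusted p of Sdha was above 0.05 without control 490 or 498 or knockout 499 or 501, and that of Uqcrfs1 without control 490 or 502 or knockout 492 or 499. With all 6 libraries, the unadjusted p of Sdha was 0.0771 in edgeR, 0.0702 in DESeq2 and 0.0531 in the authors' table. That of Uqcrfs1 was 0.0914, 0.0825 and 0.0621 in the same order. In limma under equal totals they were 0.00219 for Sdha and 0.00237 for Uqcrfs1, but 0.0944 and 0.121 under equal totals without mtDNA. Without a trended prior the limma values were 0.18 for Sdha and 0.19 for Uqcrfs1. These 3 subunits were taken by their unadjusted p in limma. Among clients not taken that way, Atp5b was at 0.01 beside Atpaf1 at 0.12, and Sdhb at 0.04 beside Sdhaf1 at -0.06. Whether factor and client shifts differ was not tested.

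**Figure D3:**
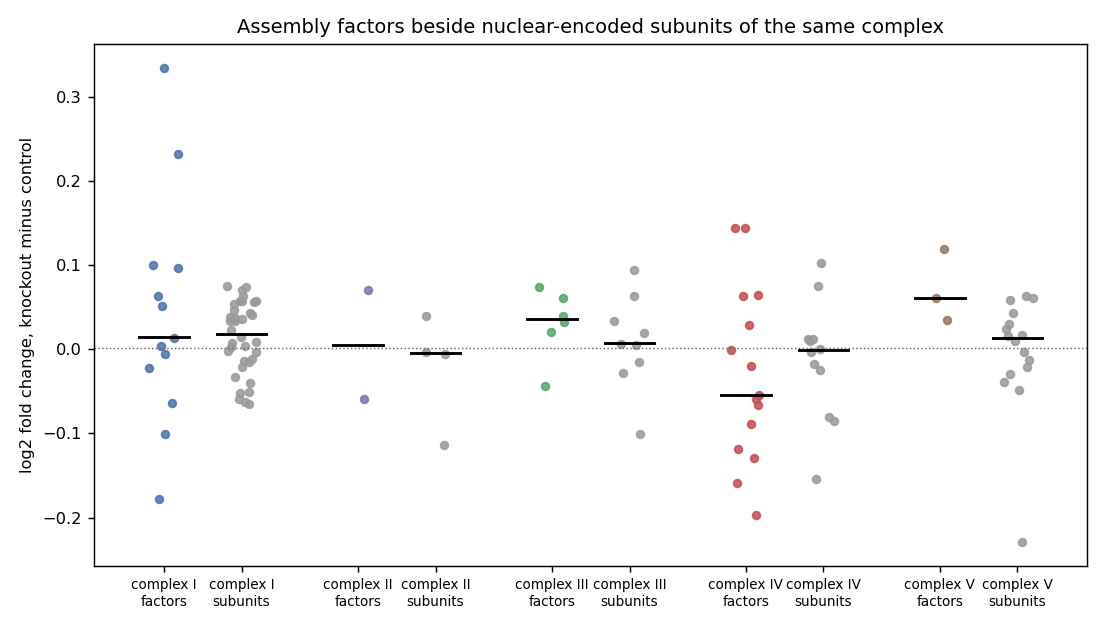
Log2 fold changes, knockout minus control, of assembly factors (coloured points) and nuclear-encoded subunits (grey points) for each complex, with medians as black bars and the median of all features tested as a dotted line. Medians of the factors run from -0.055 for complex IV to 0.061 for complex V, and those of the subunits from -0.005 to 0.018.

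By complex, the median log2 fold changes of the subunits were 0.018 for 36 of complex I, -0.005 for 4 of complex II, 0.007 for 9 of complex III, -0.001 for 12 of complex IV and 0.013 for 16 of complex V. In the list of each complex limma called 0 subunits. The complex I subunits of smallest p had log2 fold changes of 0.07 (Ndufs8) and 0.07 (Ndufs3), and the remaining subunits named by that rule had log2 fold changes as follows, Sdhb at 0.04, Uqcrc2 at 0.09, Cox8b at 0.10, Cox7c at -0.15 and Atp5g1 at 0.04. A list of 25 further assembly factors had 23 tested members, 0 of them called by limma or at an unadjusted p under 0.05, with a median of -0.005 and a range from -0.089 to 0.165. Fmc1, a complex V factor in yeast, had a log2 fold change of 0.12, and Cmc2, a twin CX9C protein of complex IV, one of 0.11.

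Promoter sequence is a feature that the list did not use, and RefSeq gave a promoter window, from 250 bases before to 50 bases after an annotated start on GRCm38.p6, for 33 of the 39 members. Of the 3 motifs given here, chosen after the shares of these and other patterns had been seen, NRF-1 and the ETS family, which includes GABP (NRF-2), are long known as regulators of nuclear respiratory genes. The ETS core CCGGAAG, searched on both strands, was in 13 of 33 members, or 39.4%, beside 19.1% of tested genes and 9.93% of all genes with a window. The NRF-1 core, GCGCA and GCGC with any 1 base between them, was in 3 members, or 9.09%, beside 10.9% of tested genes and 5.19% of all, and the YY1 pattern AAGATGGCG was in 3, or 9.09%, beside 3.36% and 1.64%. Since the patterns were chosen after shares had been seen, these shares describe the windows and are no test. Of the 33 members with a window, 18 held any of these patterns, a share that was not computed over tested genes. Among the 8 members whose groups did not overlap, 3 held any of them, and the windows of these 3 are shown 5′ to 3′ on the gene's strand with the match in capitals. They are GRCm38.p6 chr15:99725368-99725667 on the plus strand for Cox14, with the ETS core 34 bases after the start, chr2:140170396-140170695 on the plus strand for Ndufaf5, with the NRF-1 core 16 bases after it, and chr7:30322326-30322625 on the minus strand for Sdhaf1, with the ETS core in reverse orientation 7 bases after it.
Cox14: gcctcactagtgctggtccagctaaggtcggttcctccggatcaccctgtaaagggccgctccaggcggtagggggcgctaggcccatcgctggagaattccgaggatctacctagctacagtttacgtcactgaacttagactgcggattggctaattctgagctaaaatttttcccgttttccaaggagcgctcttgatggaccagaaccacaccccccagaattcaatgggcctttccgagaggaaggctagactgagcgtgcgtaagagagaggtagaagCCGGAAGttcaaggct
Ndufaf5: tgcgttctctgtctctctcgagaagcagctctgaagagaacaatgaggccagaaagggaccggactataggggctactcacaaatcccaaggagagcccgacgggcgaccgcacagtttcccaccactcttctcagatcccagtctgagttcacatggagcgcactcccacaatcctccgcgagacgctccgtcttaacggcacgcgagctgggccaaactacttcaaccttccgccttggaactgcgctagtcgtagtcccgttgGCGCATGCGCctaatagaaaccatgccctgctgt
Sdhaf1: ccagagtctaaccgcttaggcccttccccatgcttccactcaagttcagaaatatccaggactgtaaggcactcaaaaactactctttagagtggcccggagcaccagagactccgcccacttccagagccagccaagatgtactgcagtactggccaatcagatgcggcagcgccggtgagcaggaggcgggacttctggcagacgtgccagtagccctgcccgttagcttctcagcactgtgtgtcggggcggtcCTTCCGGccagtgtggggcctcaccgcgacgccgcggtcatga
Each of these windows held 1 of the 3 patterns, and a match describes letters only. The windows of Ndufaf3, Ndufaf7, Foxred1, Coa5 and Atpaf1 held none of the 3 patterns.

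The libraries held 41979163 to 50764023 reads, and the members rested on 48 to 3243 reads per library. Control 490 stood apart on the first principal component of all features tested (26.4% of variance), with a score of 30.1 where the other libraries lay between -16.7 and 5.63. On the second component (22.5%) knockout 492 lay at 25.5 and knockout 501 at -25.9, with the other libraries from -2.64 to 2.47. Without control 490 limma called 0 members, had 0 at an unadjusted p under 0.05, and gave a median log2 fold change of 0.029 for the list. Knockout 499 was the lowest of the 6 libraries in 14 members, 35.9%, against 15.8% of all features tested, and knockout 492 was the highest in 11, 28.2%, against 17.4%. Reads on mtDNA features made up 71.5% to 71.9% of knockout and 69.4% to 70.0% of control libraries, without overlap. Reads of 17 members may include those of a gene with an overlapping span in RefSeq, among them Sco2 with Tymp, Surf1 with Surf2, Cox11 with Tom1l1, Atpaf2 with Gid4, and Ndufaf4, Ndufaf5, Lyrm7 and Cox16, since the sources used here do not say whether counting used strand.

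Cardiomyocyte markers were abundant, as the heart label implies, with 7 of 7 tested and a summed level from 537785 to 581131 counts in knockout and 543299 to 593469 in control libraries. The summed levels of the endothelial, fibroblast, smooth muscle and pericyte, macrophage and red blood cell lists also overlapped between groups, and 0 of the 9 lymphocyte and adipocyte markers passed the filter on low values. Single markers within these lists did separate, as the macrophage marker Adgre1 had a mean of 118 counts in knockout and 92.0 in control hearts (log2 fold change 0.35, limma, unadjusted p = 0.023, adjusted p = 1.00), and the fibroblast marker Pdgfra one of 828 in knockout and 877 in control hearts (log2 fold change -0.08, limma, unadjusted p = 0.183, adjusted p = 1.00). The rest of both lists overlapped between groups. Cd163, Cd68, Csf1r and C1qa had log2 fold changes of 0.04, 0.04, 0.05 and 0.11. Among fibroblast markers Col1a2, Dcn and Lum were above 0 (0.10, 0.08 and 0.04), and Col1a1 and Col3a1 below (-0.08 and -0.12). Of the 5 genes listed as skeletal muscle markers Acta1 alone passed the filter on low values, while Myh4 was at 0 in every library. Myh1, Tnnt3 and Mylpf had means of only 1.66, 5.32 and 4.30 counts over the 6 libraries. The level of Acta1 therefore cannot be read as a level of skeletal muscle. Acta1 had a mean of 5060 counts in knockout and 3361 in control hearts, with no overlap between groups. It was not called (log2 fold change 0.64, limma, unadjusted p = 0.0026, adjusted p = 0.74). The part of cells expressing Adgre1, Pdgfra or Acta1 in the members' values was not tested. In such bulk tissue, fewer cells of a type and less RNA per cell cannot be told apart.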

How the data were processed

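The 6 libraries analysed were made from total heart RNA, with Ribo-Zero rRNA removal and random-hexamer priming, per the labels' protocols. Libraries made from heart mitochondria with the PARE protocol were not used here. The deposited signal is gene counts that the authors scaled by a size factor per library, and the submitters' processing notes list, with no role, DESeq2 1.22.2, R 3.5.2, featureCounts, bedtools and Bowtie2 2.3.4.1 as tools and mm10 and GRCm38 as builds. The authors also deposited a DESeq2 table, from which log2 fold changes, p-values and adjusted p-values are quoted as the authors' deposited values, and its test score was not used. Whole reads were recovered from each library's smallest step in 100% of 156689 nonzero values (tolerance 0.01).

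Symbols were joined for 54686 of 54715 Ensembl features. Features with a mean of at least 10 were tested with limma 3.58.1 in R 4.3.3 on log2(value + 1), a scale that understates changes of low genes, with a trended prior, genotype as the only term, 2-sided, and Benjamini-Hochberg adjustment over 18250 features at 0.05. edgeR 4.0.16 and DESeq2 1.42.0 were run on the recovered reads as alternatives, and the fits were tested on simulated counts. The members and lists were chosen with earlier results of these data known. Members given in full are, per complex, those of highest and lowest mean and of largest and smallest log2 fold change, and those at an unadjusted p under 0.05, 17 in all. Ndufaf5, Ndufaf7 and Foxred1 were added after their values were seen. Subunits named are the 2 of smallest p in each list. Counts were not divided by transcript length, so levels are not compared between genes. No pair of libraries within a group agreed within counting noise (chi-square divided by its degrees of freedom, 3.52 to 15). That value was taken over all features but those of few reads, with mtDNA features included, and was not computed for the members alone.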

Additional observations from a re-analysis of the deposited data

How the results depend on the processing

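The count of 0 members called held in all 18 alternatives, among them other pseudocounts, filters, scalings, limma priors, edgeR, DESeq2, and each library left out in turn. The number of features called, 4 in all, was 12 without a filter, 37 under equal totals, 0 without a trended prior (835 at an unadjusted p under 0.05), 12 with robust moderation and 31 with DESeq2, and 1 to 8 when 1 library was left out. Of 18250 features tested, 675 were at an unadjusted p under 0.05 in the main fit and 1498 under equal totals. With 1 library left out there were from 580 (without knockout 499) to 906 (without knockout 492). Members at that p numbered 4 under equal totals (Cox14, Coa5, Ndufaf3 and Uqcc1), 0 with DESeq2 and 0 to 4 with 1 library left out. Among the latter fits, the 4 arose without knockout 492 (Coa5, Ndufaf4, Nubpl and Cox14) and the 0 without control 490, knockout 499 or control 502. The 1 such member was Ndufaf3 without a trended prior and Atpaf1 under equal totals without mtDNA, in place of Cox14. Members whose groups did not overlap numbered 11 to 15 with 1 library left out, where fewer libraries overlap less often by construction. The share of all features tested was not computed for those fits, so these counts cannot be read against a background.

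Equal totals shifts all features alike, to a median log2 fold change of -0.069, as the mtDNA share of the totals differs between groups, and the members' median became -0.0495. The signs of values near 0 turned there for Ndufaf6 (-0.0177), Sdhaf2 (-0.000363), Lyrm7 (-0.0495), Tmem70 (-0.035), Atpaf2 (-0.00907), Sdhb (-0.0303) and Atp5g1 (-0.0267). Cox16 turned under TMM scaling (0.000554) and equal totals without mtDNA (0.0262). With 1 library left out the log2 fold change ranged from -0.0533 to 0.0927 for Cox16, -0.106 to 0.206 for Lyrm7, -0.177 to 0.0171 for Ndufaf4, -0.0996 to 0.143 for Ndufaf6, -0.00226 to 0.0716 for Tmem70, -0.00442 to 0.127 for Atpaf2 and -0.0268 to 0.0754 for Sdhb. Without a turn of sign it ranged from -0.289 to -0.0729 for Cox18, 0.172 to 0.496 for Nubpl, 0.0709 to 0.192 for Cox11, 0.157 to 0.307 for Ndufaf7, -0.0631 to -0.0158 for Uqcc1, 0.0456 to 0.122 for Uqcc3 and -0.257 to -0.0936 for Rexo2. The members' median was -0.00508, -0.00715 and -0.00197 without knockout 492, knockout 501 and control 502. No paired analysis was possible because the table's columns carry no replicate numbers of the labels. With 3 libraries per group and SEs of 0.048 to 0.199, shifts of the sizes seen here could mostly not be told from 0.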
